A study of Mus musculus with 3 samples.

Results

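The genes described are 10 genes of the circadian clock, the cell-autonomous oscillator that times daily gene expression. They were chosen by name, as 10 of 21883 protein-coding genes, and each was read as the gene plus 5 kb on either side (mm10). All 10 were found. They comprise the Period genes Per1, Per2 and Per3, the cryptochrome genes Cry1 and Cry2, the activator gene Clock, the REV-ERB receptor genes Nr1d1 and Nr1d2, the output factor gene Dbp and the repressor gene Bhlhe40.

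In the clock, CLOCK pairs with BMAL1, the product of Arntl, and the pair activates genes through E-box sequences. Among its targets are the Per and Cry genes, whose proteins return to the nucleus and repress the pair, and Nr1d1 and Nr1d2, whose products repress Arntl. Granulosa cells, the steroid-producing cells of the ovarian follicle, are known to carry this oscillator, and Per1 is known to respond to cyclic AMP signalling in many cell types. Histone H3 trimethylated on lysine 4 (H3K4me3) is a chromatin mark found just downstream of active or poised start sites.

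H3K4me3 was mapped by ChIP-seq, in which chromatin is pulled down with an antibody and its DNA sequenced. The granulosa cells were released by puncturing follicles of wild-type C57BL/6 females aged 21 to 28 days. All animals had received 4 IU of eCG, which drives follicles to grow. The 0 h library came from ovaries taken before hCG, and the 4 h and 12 h libraries from ovaries taken 4 h and 12 h after 5 IU of hCG, the luteinizing hormone analogue that triggers ovulation. There was 1 library per time, so no difference below has a replicate check or a test, and no source used here says how many animals went into a library. The hours of the day at which ovaries were taken are not stated either. Time after hCG thus cannot be told apart, in any comparison, from the hour of collection and the clock phase sampled at it. The 12 h library also differed in sequencing lane (5 against 4) and in the tag nolambda, which its peak names lack, and these differences cannot be told apart from time either.

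The lists held 20669 to 23662 peaks with median widths of 306 to 333 bp, and they give positions alone, so the sequencing depth and the height of each peak are unknown. The narrowest peaks had 136, 139 and 152 bp at 0 h, 4 h and 12 h. Of 11 granulosa cell markers, 9, 10 and 8 had a peak at 0 h, 4 h and 12 h, with 12324, 9523 and 5422 covered bp in sum. Amh had none at any time, Inhba had one at 4 h alone, and Inha had none at 12 h. Of 22 markers of theca, immune, endothelial, stromal and oocyte cells, 2, 5 and 4 had a peak. Among those without a peak, Cyp17a1 (theca), Adgre1 (macrophages), Pecam1 (endothelium), Acta2 (smooth muscle) and Zp3 (oocyte) had 0 bp at every time. Others of these lists had peaks, and their windows were not checked for the starts of neighbouring genes. The oocyte marker Gdf9 held 810, 1166 and 530 bp, and the endothelial marker Kdr 347 bp at 4 h and 164 bp at 12 h. Ptprc (leukocytes) and Myh11 (smooth muscle) each held 139 bp at 4 h alone, and Pdgfra (stroma) 192 bp at 12 h alone. The summed coverage of the immune list, nearly all of it in the Cd68 window, was 838, 1668 and 891 bp. The part of these shifts in the results below was not tested.

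Every clock gene carried H3K4me3 at every time. All 10 had a peak at 0 h, 4 h and 12 h, against 56.3%, 58.3% and 56.2% of all protein-coding genes. The members had 25, 19 and 23 peaks at the successive times, of which 18, 16 and 20 touched the gene itself. Covered bp, the length covered by peaks in the window, ran from 482 to 1439 bp at 0 h with a median of 899, from 491 to 2015 bp at 4 h with a median of 860, and from 291 to 1885 bp at 12 h with a median of 1174. Over all genes with a peak the medians were 852, 916 and 845 bp. Covered bp says how wide a stretch was called, not how strong the mark was or how much RNA was made.

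**Figure D1:**
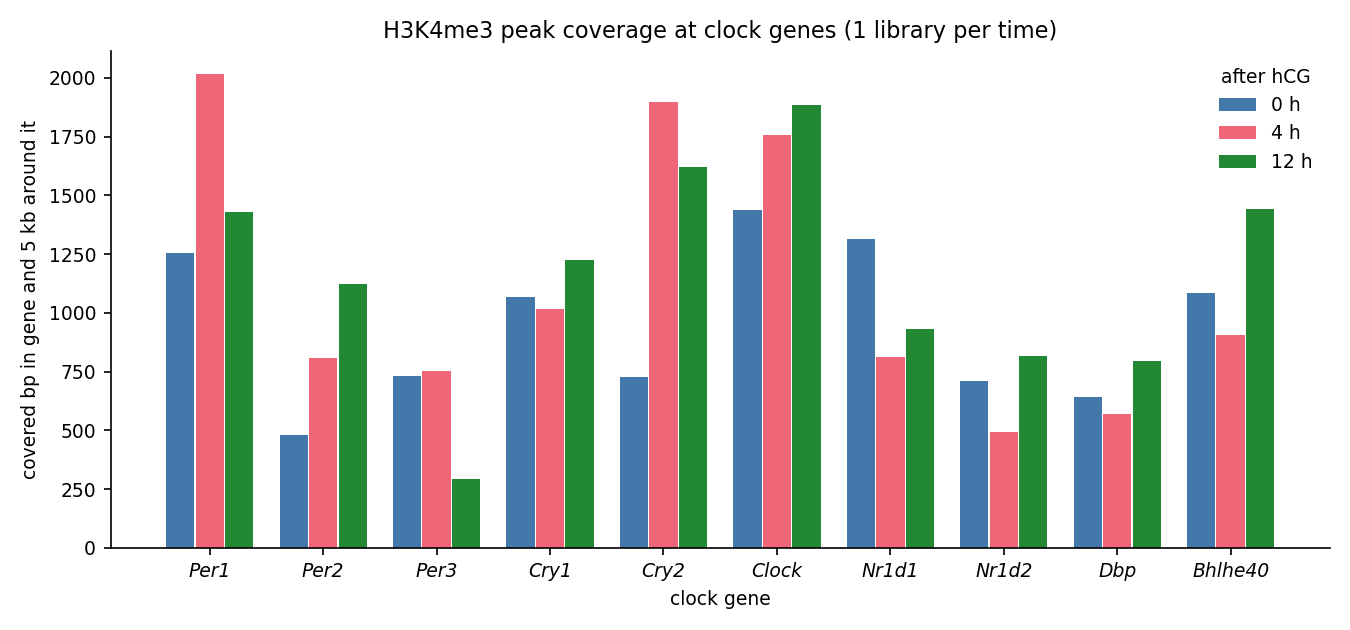
Covered bp of H3K4me3 peaks (vertical axis, bp) in each clock gene and the 5 kb around it, with 1 bar per library at 0 h, 4 h and 12 h after hCG and no error bars because there was 1 library per time. Cry2 stands at 725, 1897 and 1622 bp, Per2 rises from 482 to 1122 bp, and Per3 drops to 291 bp at 12 h.

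Most of the marked length lay in peaks inside the gene, except at Nr1d1 at 0 h (526 bp inside and 789 bp outside). At Per2 at 4 h the parts were close (415 and 394 bp). Of 8 members with an annotated start in the RefSeq promoter table, the 250 bases before the start used had no peak in 7 of 7, 7 of 8 and 7 of 8 members with a peak within 1 kb of it at 0 h, 4 h and 12 h. Among all genes with such a peak these shares were 67.2%, 64.5% and 69.3%. Covered bp in the 1 kb after the start exceeded that in the 1 kb before it in 5 of 7, 8 of 8 and 8 of 8 members, and in 82.1%, 83.2% and 83.2% of all genes. The exceptions at 0 h were Clock, with 635 bp before and 551 bp after the start used, and Nr1d1, with 558 and 526 bp. Positions for Per2 and Bhlhe40 are given from the gene end beside their peaks.

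**Figure D2:**
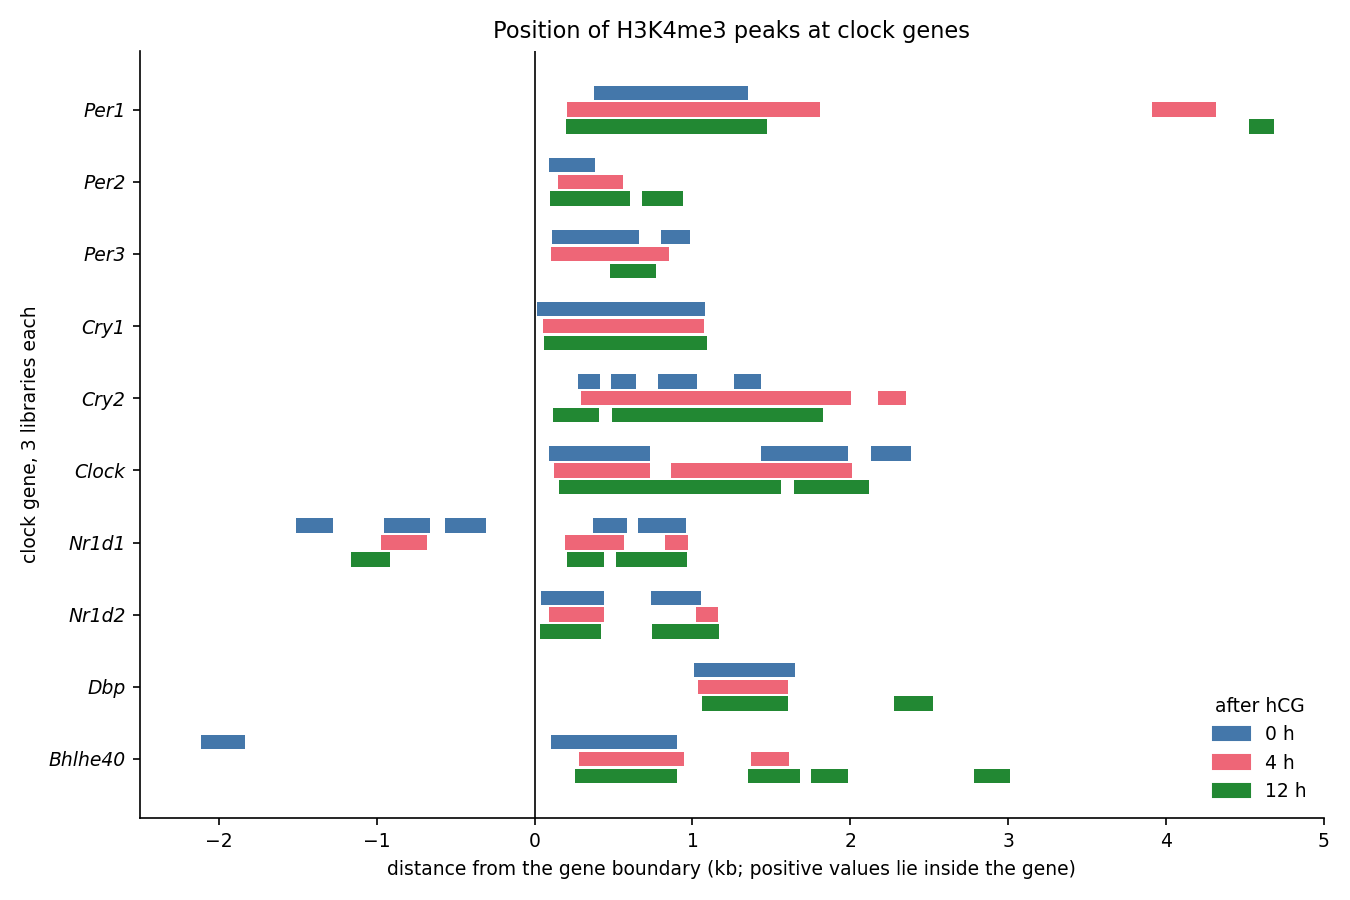
Peaks at each clock gene, drawn to scale as bars at their distance in kb from the gene boundary on the start side (0; positive values lie inside the gene), with 1 row per library at 0 h, 4 h and 12 h. For Per2 and Bhlhe40 the boundary is the gene end beside their peaks, and peaks more than 5 kb inside the boundary or in the far flank (at Per1, Per2 and Cry1) are not drawn; the 4 short peaks of Cry2 at 0 h face a single 1715 bp peak at 4 h.

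The comparisons used the log2 ratio of covered bp between libraries minus its median over all genes with a peak at both times, called the centred ratio. That median was 0.12 from 0 h to 4 h, -0.14 from 4 h to 12 h and -0.02 from 0 h to 12 h. A gene was called broader or narrower when its centred ratio passed 1.5-fold (0.58). The 3 comparisons share libraries, so the 4 h library enters both intervals, with opposite sign.

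From 0 h to 4 h, the comparison that spans the first response to hCG, 2 of 10 clock genes were broader, against 13.0% of all genes with a peak at both times, and 2 were narrower, against 10.4%. None lost all its peaks, against 2.58% of genes. Cry2 and Per2 were the broader members, and the 2 REV-ERB genes were the narrower ones. The median centred ratio of the members was -0.13, with 4 of 10 above 0. From 4 h to 12 h, the interval of luteinization, 4 were broader (9.60% of all genes) and 1 was narrower (12.4%), none lost all peaks (6.22%), and the median was 0.37, with 7 above 0. From 0 h to 12 h, 2 were broader (12.8%) and 1 was narrower (12.9%), none lost all peaks (4.81%), and the median was 0.27, with 8 above 0. Of these counts, the 4 broader members from 4 h to 12 h lay farthest above the share over all genes. That count was 2 without centring (6.67% of all genes), 2 with peaks less than 1 kb apart joined (11.5%) and 0 at 2-fold (3.36%).

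**Figure D3:**
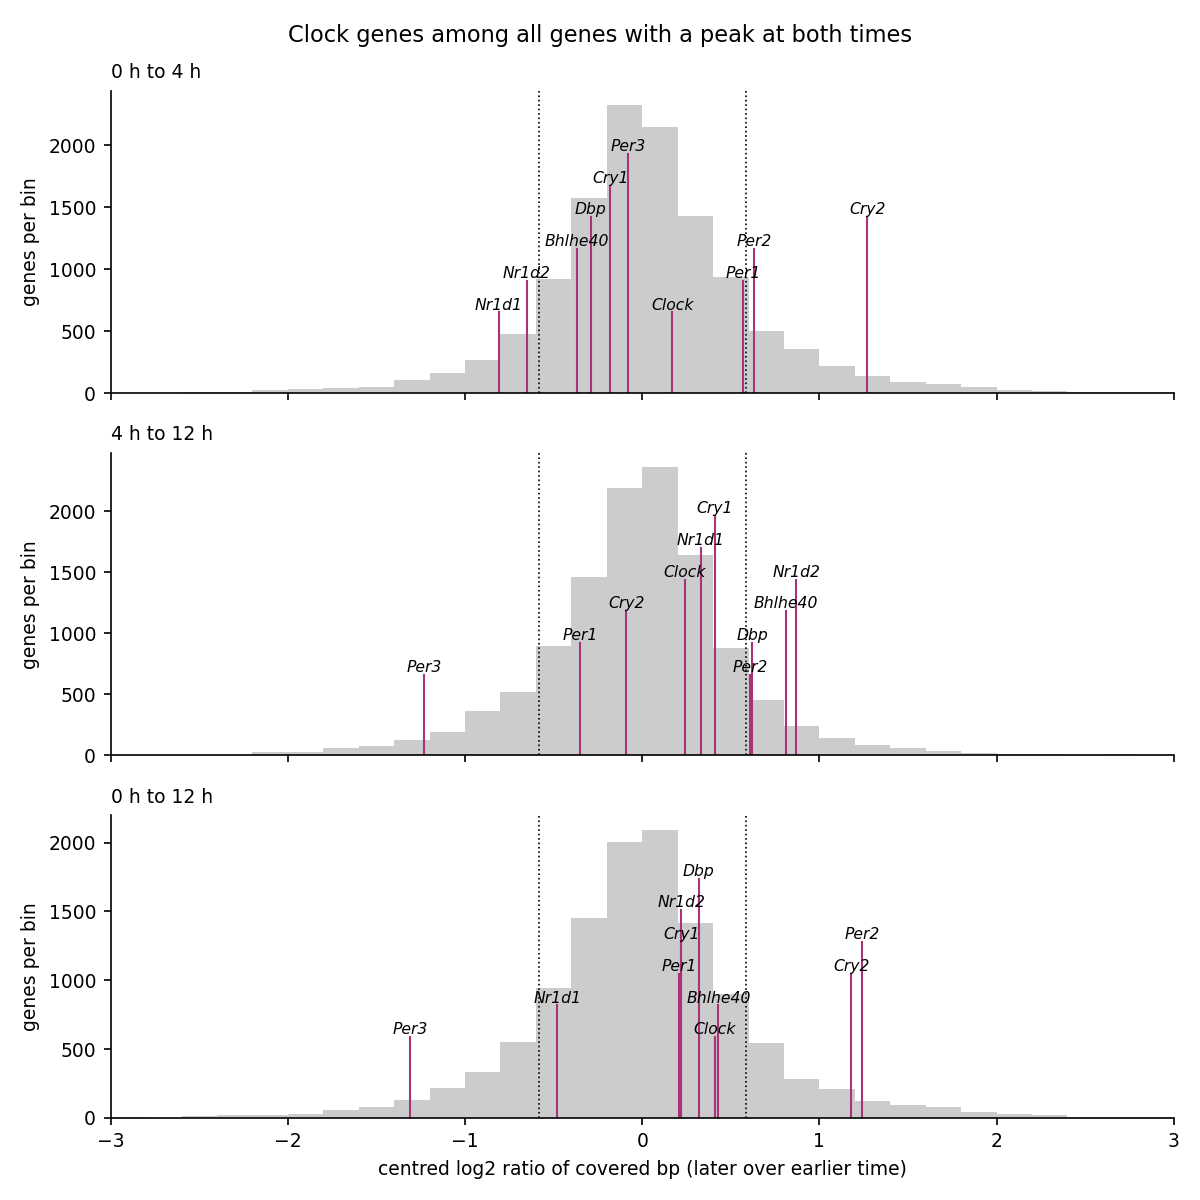
Centred log2 ratios of covered bp on the horizontal axis for all genes with a peak at both times (grey histogram, genes per bin of 0.2, axis limited to 3 on either side) and for the 10 clock genes (labelled lines, whose heights only separate the names). Dotted lines mark 1.5-fold. Cry2 lies at 1.27 from 0 h to 4 h and Per3 at -1.23 from 4 h to 12 h. Most members lie within the dotted lines from 0 h to 4 h and from 0 h to 12 h, and 5 of 10 from 4 h to 12 h.

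By the time of their widest coverage, 6 of 10 members were broadest at 12 h, against 24.5% of 11603 genes with a peak at all times. Broadest at 4 h were 3 members (46.4% of genes), and 1 was broadest at 0 h (29.1%). The 6 were Per2, Cry1, Clock, Nr1d2, Dbp and Bhlhe40, the 3 were Per1, Per3 and Cry2, and the last was Nr1d1. Narrowest at 4 h were 5 members, Cry1, Nr1d1, Nr1d2, Dbp and Bhlhe40, against 20.1% of genes, while 4 were narrowest at 0 h (38.9%) and Per3 alone at 12 h (41.0%). This way of counting was chosen after the values were seen, and it uses covered bp without centring.

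Cry2 encodes a cryptochrome, a partner of the Period proteins and a direct repressor of CLOCK and BMAL1. Its window (chr2:92403646-92434085 with 5 kb around it) held 725 bp at 0 h, 1897 bp at 4 h and 1622 bp at 12 h. At 0 h these were 4 short peaks of 140 to 247 bp, spread over the stretch from 275 to 1437 bp inside the gene boundary. At 4 h a single peak of 1715 bp (chr2:92432080-92433794) ran from 291 to 2005 bp inside it, with a further peak of 182 bp beyond. At 12 h peaks of 290 and 1332 bp covered most of the same stretch. The centred ratio was 1.27 from 0 h to 4 h, above 97.0% of genes, and 1.18 from 0 h to 12 h. Between 4 h and 12 h it was -0.09. With peaks less than 1 kb apart joined, which counts the gaps between the short 0 h peaks as covered, the values were 1163, 2066 and 1709 bp and the ratios 0.77 and 0.59. With narrow peaks left out they were 2.69 and 2.73.

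The protein-coding genes whose covered bp followed Cry2 most closely were Zxdc (660, 1985 and 1676 bp), BC005537 (663, 1793 and 1551 bp) and Kctd15 (672, 1952 and 1473 bp). Likeness was the Euclidean distance of log2(covered bp + 100) over 3 libraries, which came to 0.14, 0.15 and 0.17. Since 3 points are few, many genes can lie close.

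The bases just before Cry2 (RefSeq, GRCm38.p6, minus strand, chr2:92434086-92434319) are shown because they lie beside the peaks of the member with the highest centred ratio from 0 h to 4 h. None of the 3 libraries had a peak in the 250 bases before the start. Capitals mark matches to the motifs searched, here the core of a cyclic AMP response element (TGACG, read as CGTCA) and an E-box variant (CACGTT, read as AACGTG).
Cry2: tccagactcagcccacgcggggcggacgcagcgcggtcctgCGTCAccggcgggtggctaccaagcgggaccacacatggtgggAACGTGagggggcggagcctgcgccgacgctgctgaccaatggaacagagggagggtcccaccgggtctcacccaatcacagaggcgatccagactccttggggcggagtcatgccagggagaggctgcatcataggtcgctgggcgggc

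Cry1, the other cryptochrome gene, kept its coverage. Its window (chr10:85131700-85185054 with 5 kb around it) held 1066 bp at 0 h, 1018 bp at 4 h and 1226 bp at 12 h. A single peak next to the start had 1066, 1018 and 1035 bp at the 3 times, beginning 12, 55 and 60 bp inside the gene. The higher sum at 12 h came from a peak of 191 bp in the far flank, 31 bp from an annotated start of Mterf2. The centred ratios were -0.18 at 4 h and 0.22 at 12 h against 0 h, and 0.41 between the later libraries, all within 1.5-fold.

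The 250 bases before Cry1 (minus strand, chr10:85185055-85185304) are shown for contrast, as a clock promoter with a canonical E-box beside a peak of nearly the same width in each library. Capitals mark an E-box variant (CACGTT, read as AACGTG), an E-box (CACGTG) whose first base lies at -60, and the core of a cyclic AMP response element (TGACG).
Cry1: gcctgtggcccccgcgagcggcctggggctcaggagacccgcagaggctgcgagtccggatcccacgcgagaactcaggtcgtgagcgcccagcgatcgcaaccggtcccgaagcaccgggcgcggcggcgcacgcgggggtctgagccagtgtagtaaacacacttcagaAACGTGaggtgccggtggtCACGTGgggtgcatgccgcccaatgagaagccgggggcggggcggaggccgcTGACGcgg

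Per1, the Period gene known for rapid induction by cyclic AMP, was the broadest member at 4 h. Its window (chr11:69095108-69109965 with 5 kb around it) held 1256 bp at 0 h, 2015 bp at 4 h and 1431 bp at 12 h. Most of this was a peak near the outermost annotated gene boundary, with widths of 972, 1604 and 1277 bp. The 4 h library had a further peak of 411 bp (chr11:69099017-69099427) that began 68 bp after the annotated start at position 69098949. At 0 h no peak lay within 1 kb of that start, and at 12 h there was a peak of 154 bp, close to the minimum of that list (152 bp), 362 bp before the next annotated start. The 0 h sum included peaks of 144 and 140 bp beyond the far end of the gene, nearer to Hes7 than to Per1. The centred ratio from 0 h to 4 h was 0.57, just inside the 1.5-fold limit. It passed the limit in 6 of 9 alternatives, with a range of 0.38 to 0.94 over all of them, and was 0.94 without peaks nearest to another gene. From 4 h to 12 h it was -0.35 and from 0 h to 12 h 0.21.

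The start with the added 4 h peak has an E-box before it, shown in capitals within 30 bases (plus strand, chr11:69098771-69098800). Its first base lies at -166, counting back from the base before the start as -1. No library had a peak in the 250 bases before that start. The start lies 3841 bp inside the gene boundary, and the widest Per1 peak of each library lies nearer that boundary.
Per1: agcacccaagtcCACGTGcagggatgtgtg

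Per2, whose protein pairs with the cryptochromes, widened at each step. Its window (chr1:91415977-91459351 with 5 kb around it) held 482 bp at 0 h, 809 bp at 4 h and 1122 bp at 12 h. The peaks inside the gene, 91 to 940 bp from its end, had 295, 415 and 769 bp in sum, and the rest lay in the far flank at Hes6, a transcriptional regulator gene. At 12 h the peak nearest the gene end had 508 bp and was joined by another of 261 bp. The centred ratio was 0.63 for the first interval, 0.61 for the second and 1.24 from 0 h to 12 h. Without the Hes6 peaks the first was 0.38, within 1.5-fold, and the last 1.39.

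Per3, the Period gene least needed for the oscillator, narrowed at 12 h. Its window (chr4:150997018-151044707 with 5 kb around it) held 732 bp at 0 h, 751 bp at 4 h and 291 bp at 12 h. The 4 h peak ran from 103 to 853 bp inside the gene boundary, and the 12 h peak from 476 to 766 bp, so the part next to the start was not called at 12 h. The centred ratio was -0.08 from 0 h to 4 h, -1.23 from 4 h to 12 h, below all but 2.63% of genes, and -1.31 from 0 h to 12 h, below all but 2.42%.

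DBP and its relatives bind the D-box (TTATGTAA). No promoter of Per2 or Bhlhe40 was searched for it, and Per1 was searched only at starts inside the gene. Among the 11 member promoters searched, that of Per3 alone held the D-box, in 2 places. Each is shown in capitals within 30 bases of the minus strand (chr4:151044852-151044881 and chr4:151044805-151044834), with first bases at -205 and -158. The first overlaps the annotated start of Gm38529, a gene model on the other strand.
Per3 distal D-box: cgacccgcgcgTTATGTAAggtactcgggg
Per3 proximal D-box: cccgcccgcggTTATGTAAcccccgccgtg

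Clock encodes the activator that BMAL1 pairs with, and its coverage was among the widest of the members at every time. Its window (chr5:76209868-76305603 with 5 kb around it) held 1439 bp at 0 h, 1757 bp at 4 h and 1885 bp at 12 h. The covered stretch was broken into 3 peaks at 0 h, of 635, 551 and 253 bp. It was broken into 2 at 4 h (611 and 1146 bp) and at 12 h (1408 and 477 bp). Of 3 annotated starts, none lay in a peak at 0 h. At 4 h the start at 76304548 alone did, and at 12 h all 3 did. The gap between the outer peaks, from 728 to 1435 bp inside the boundary at 0 h, was partly covered at 4 h and wholly at 12 h. Centred ratios stayed within 1.5-fold, at 0.17, 0.24 and 0.41.

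Nr1d1 and Nr1d2 encode REV-ERB alpha and beta, heme-binding nuclear receptors that repress Arntl. Nr1d1 (chr11:98767932-98775377, which overlaps the end of Thra by 1075 bp) held 1315 bp at 0 h, 813 bp at 4 h and 931 bp at 12 h. At 0 h it had 5 peaks, 2 inside the gene and 3 before it, whereas at 4 h and at 12 h it had 2 inside and 1 before. Peaks before the gene had 789 bp in sum at 0 h, 290 at 4 h and 246 at 12 h, and those inside it 526, 523 and 685 bp. The centred ratio of the window was -0.81 from 0 h to 4 h, and that of the gene body alone was -0.12. It was 0.33 from 4 h to 12 h and -0.48 from 0 h to 12 h.

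Nr1d2 (chr14:18204056-18239106) held 710 bp at 0 h, 491 bp at 4 h and 815 bp at 12 h. Its peak next to the start had 397, 351 and 390 bp, and a second stretch farther in had 313, 140 and 425 bp. The 140 bp peak at 4 h was close to the narrowest width in that library. The centred ratios were -0.65 from 0 h to 4 h and 0.87 from 4 h to 12 h, the second above 95.5% of genes, and 0.22 from 0 h to 12 h. With peaks less than 1 kb apart joined, the gap was counted as covered, and the ratios were 0.02, 0.20 and 0.21.

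The 250 bases before Nr1d1 (minus strand, chr11:98775378-98775627) are shown because peaks lay on both sides of them and in none of the 3 libraries within them. Capitals mark an E-box variant (CACGTT, read as AACGTG).
Nr1d1: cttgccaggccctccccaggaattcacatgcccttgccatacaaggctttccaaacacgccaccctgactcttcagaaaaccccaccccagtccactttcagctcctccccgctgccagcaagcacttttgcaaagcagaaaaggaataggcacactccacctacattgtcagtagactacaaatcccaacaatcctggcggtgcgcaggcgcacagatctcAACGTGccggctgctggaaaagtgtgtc

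Dbp encodes an activator that acts through D-boxes and is a strongly rhythmic output of the clock in many tissues. The gene itself overlaps the end of Sphk2 by 741 bp, and its window also reaches into Car11. The Dbp window (chr7:45705100-45710203 with 5 kb around it) held 643 bp at 0 h, 570 bp at 4 h and 795 bp at 12 h. A peak 1009 to 1651 bp inside the gene boundary at 0 h recurred with 570 and 547 bp, and at 12 h a peak of 248 bp was added farther in. The centred ratios were -0.29, 0.62 and 0.32. Without that peak the 12 h value would be 547 bp, below the 4 h value.

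Bhlhe40 encodes DEC1, a repressor that competes for E-boxes. Its window (chr6:108660629-108666925 with 5 kb around it) held 1084 bp at 0 h, 907 bp at 4 h and 1442 bp at 12 h. The peak at the gene end had 801, 666 and 644 bp. Inside the gene beyond it, the 4 h library had a peak of 241 bp and the 12 h library peaks of 335, 234 and 229 bp, while at 0 h the only other peak, of 283 bp, lay outside the gene. The centred ratio was -0.37 from 0 h to 4 h, 0.81 from 4 h to 12 h and 0.43 from 0 h to 12 h.

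Of the member peaks at 0 h, 19 of 25 were overlapped by at least 1 bp at 4 h (76.0%, 95% Clopper-Pearson interval 54.9 to 90.6), against 82.0% of all 0 h peaks. At 12 h, 18 of these 25 were overlapped (72.0%, 50.6 to 87.9), against 75.2%. Of the member peaks at 4 h, 15 of 19 overlapped a peak at 0 h (78.9%, 54.4 to 93.9), against 73.8%, and 16 of 19 a peak at 12 h (84.2%, 60.4 to 96.6), against 72.3%. Of those at 12 h, 16 of 23 overlapped a peak at 0 h (69.6%, 47.1 to 86.8), against 78.5%, and 17 of 23 a peak at 4 h (73.9%, 51.6 to 89.8), against 84.4%. The members thus lay below the share of all peaks for the 0 h and 12 h peaks and above it for the 4 h peaks, and each interval holds the share of all peaks. The intervals cover counting error alone, and peaks of 1 gene are not independent of each other.

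Motifs were searched on both strands of 300 bases (250 before the start, 50 after) in 21262 promoters of protein-coding genes. Of these, 11 belonged to 8 members, and none to Per2 or Bhlhe40. The 2 searched for Per1 lie at starts inside the gene, the outer one 3841 bp from the gene boundary. The bases before that boundary, near the widest Per1 peak of each library, were not searched. The E-box CACGTG was in 2 of 11 member promoters (Cry1 and Per1) and 7.84% of all. The variant CACGTT was in 3 (Cry1, Cry2 and Nr1d1) and 4.68% of all, and the D-box TTATGTAA in 1 (Per3) and 0.894% of all. The full cyclic AMP response element TGACGTCA was in 0 member promoters and 2.23% of all, and its core TGACG, which the full element contains, in 4 (of Cry1, Cry2 and both starts of Per1) and 23.6% of all. The core AGGTCA of the element that ROR and REV-ERB receptors bind was in 3 (Clock, Nr1d2 and Per1) and 14.7% of all.

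The 28 other clock genes reported here had a peak at all times. From 0 h to 4 h, 8 of the 28 were broader and 2 narrower, with a median centred ratio of 0.25 and 17 above 0. From 4 h to 12 h none was broader and 2 were narrower, with a median of -0.01. From 0 h to 12 h 6 were broader and 3 narrower, with a median of 0.20. The shares of all genes are those given above for the members. Over the 9 alternatives at 1.5-fold, 7 to 11 were broader from 0 h to 4 h (12.2% to 17.1% of all genes) and 0 to 2 narrower (7.71% to 12.3%). From 4 h to 12 h, 0 to 4 were broader (6.67% to 11.5%). In these alternatives 24 to 28 of the list had a peak at both times in the first interval and 23 to 28 in the second.

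Arntl, the gene of BMAL1, held 488 bp at 0 h, 1074 bp at 4 h and 1293 bp at 12 h. Its centred ratios were 1.02 and 1.42 at 4 h and 12 h against 0 h. Rora and Rorb, genes of receptors that activate Arntl, held 1339, 2447 and 2948 bp and 411, 883 and 781 bp. Nfil3, a repressor at D-boxes, held 821, 1539 and 1425 bp. Id2, an inhibitor of basic helix-loop-helix factors, went from 184 bp at 0 h to 1512 and 2005 bp, the widest ratios of the list at 2.92 and 3.46. Npas2, a paralogue of Clock, held 210, 689 and 606 bp.

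Against 0 h, Noct (649, 1228 and 870 bp) was called broader at 4 h and not at 12 h. So was the casein kinase gene Csnk1e (644, 1054 and 765 bp), whose product phosphorylates PER proteins. Bhlhe41, the paralogue of Bhlhe40, was narrower (766, 295 and 384 bp), and so was Arntl2, a paralogue of Arntl (477, 139 and 152 bp, the later values at the narrowest width of their libraries). Ciart, a repressor gene of the clock, held 543, 816 and 453 bp and Usp2 724, 693 and 336 bp, and both were narrower at 12 h than at 4 h. Npas2 and Arntl2 lie outside the naming rule and were named after their values were seen. The calls for Id2 and Rorb from 0 h to 4 h recurred in 9 of 9 alternatives at 1.5-fold, and those for Arntl, Npas2, Nfil3 and Noct in 8 of 9. Arntl was not called with narrow peaks left out, Npas2 with the gene body alone, and Nfil3 and Noct with peaks less than 1 kb apart joined. The call for Csnk1e recurred in 7 of 9, and those for Rora, Bhlhe41 and Arntl2 in 6 of 9. From 4 h to 12 h the calls for Ciart and Usp2 recurred in 6 and 7 of 9. Each call of this list from 0 h to 12 h recurred in 7 to 9 of 9 alternatives, except that of Rora, which recurred in 6.

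**Figure D4:**
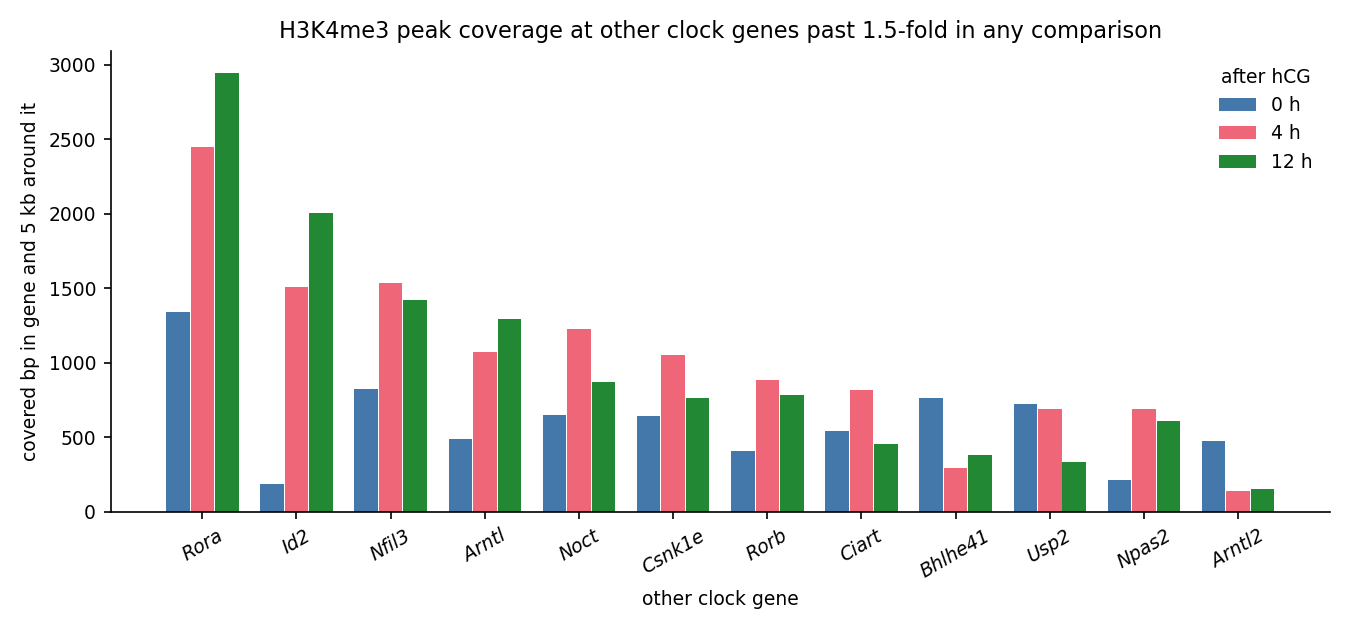
Covered bp of H3K4me3 peaks (vertical axis, bp) at the 12 other clock genes that passed 1.5-fold in at least 1 comparison, with 1 bar per library at 0 h, 4 h and 12 h after hCG. Arntl, Rora and Id2 widen at both steps, while Bhlhe41 and Arntl2 are widest at 0 h.

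Across the settings tried, the calls differed in how firmly they held. The calls for Cry2 and Per2 from 0 h to 12 h, Cry2 from 0 h to 4 h, Per3 from 4 h to 12 h and from 0 h to 12 h, and Bhlhe40 from 4 h to 12 h recurred in 9 of 9 alternatives at 1.5-fold. At 2-fold the first 5 of these remained and the call for Bhlhe40 was lost. From 0 h to 4 h the calls for Nr1d1 and Nr1d2 recurred in 7 of 9, and the call for Per2 in 5 of 9. Per1 was within 1.5-fold in 3 of 9 and broader in the other 6, so that Per1 passed the limit in more alternatives than Per2. From 4 h to 12 h the call for Nr1d2 recurred in 8 of 9, and those for Per2 and Dbp in 6 of 9.

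**Figure D5:**
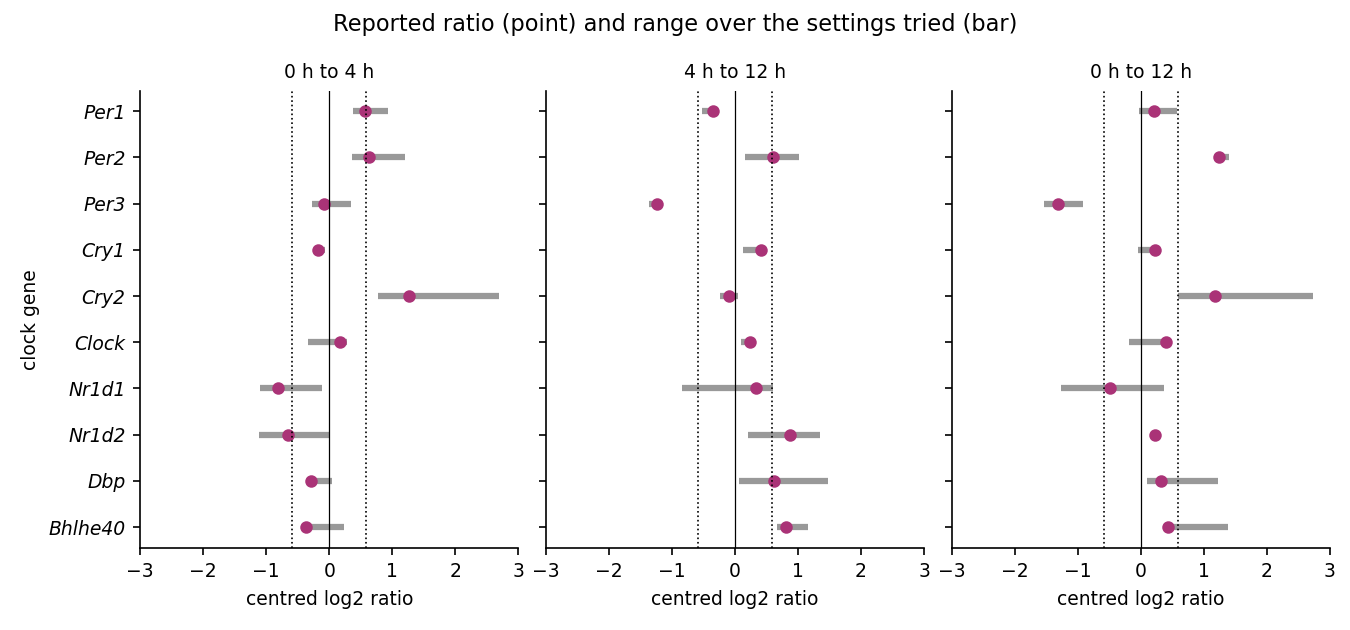
Centred log2 ratio of covered bp for each clock gene in the 3 comparisons (points) and the range over the settings tried (grey bars), with dotted lines at 1.5-fold. The bars of Cry2 from 0 h to 4 h (0.77 to 2.69) and Per3 from 4 h to 12 h (-1.37 to -1.22) lie wholly past 1.5-fold, and those of Nr1d1 and Nr1d2 from 0 h to 4 h cross it.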

How the data were processed

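Granulosa cell H3K4me3 was read from 3 deposited peak lists, 1 per library, which give the positions of peaks in bp and no other measurement. The tools named in the submitters' processing notes are MACS2 2.0.9, Bowtie2 2.2.3 and CASAVA 1.8, with the build mm10. No source used here gives the calling threshold or says whether an input library was used. Depth is unknown, so the precision of a width cannot be given.

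Autosomal (1 to 19), X and Y peaks were clipped to each protein-coding gene and 5 kb around it (RefSeq genes of GRCm38.p6, the mm10 build), and covered bp were summed with Python 3.11.15, NumPy 2.4.6 and pandas 2.3.3. Starts, strands and promoter sequences came from the RefSeq promoter table, which matched 8 of 10 members. Ratios, centring and the 1.5-fold rule ran on all genes. The calling code was run on simulated lists in which a single peak per gene was widened, narrowed, added, removed or kept. Those lists lack the split peaks and neighbours' peaks of real windows, so the run checks the code and not the precision of the calls. All members are named. Of the other clock genes, those past the rule in any comparison are named, up to 10 by widest coverage. Of the list of other clock genes fixed at the start, 2 are not reported here and were left out of its counts. Members and lists were chosen with earlier results of these data known. Alternatives were the flank, a window around starts, narrow peaks left out, peaks joined, equal numbers of widest peaks, neighbours' peaks left out, no centring, 2-fold, and reciprocal overlap of 50%.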

Additional observations from a re-analysis of the deposited data

How the results depend on the processing

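No paired analysis was possible because there was 1 library per time. Where a cause is not stated below, the cause was not tested. Shares in brackets are of all genes with a peak at both times under the same setting. With peaks less than 1 kb apart joined, 0 members were narrower from 0 h to 4 h (12.3%). From 4 h to 12 h, 2 were then broader (11.5%) and 2 narrower (16.9%), and from 0 h to 12 h, 4 were broader (14.8%) and 2 narrower (16.6%). The ratio of Nr1d2 from 0 h to 4 h then turned to 0.02, since the gap between its peaks counts as covered. With the gene body alone, 1 member was narrower from 0 h to 4 h (11.5%), since the peaks before Nr1d1 are left out. Without centring, 1 was narrower from 0 h to 4 h (7.71%) and 2 broader from 4 h to 12 h (6.67%). The share of broader genes among all called genes moved from 55.6% to 68.9% and from 43.6% to 27.8% in these intervals. At 2-fold, 1 member was broader (5.30%) and 0 narrower (3.68%) from 0 h to 4 h, and 0 broader from 4 h to 12 h (3.36%). The genes past 2-fold numbered 636 broader and 442 narrower, then 402 and 536, and 627 and 578 from 0 h to 12 h. With reciprocal overlap of 50%, 11 and 9 of the 25 member peaks at 0 h were shared at 4 h and 12 h. Of the 19 at 4 h, 9 were shared at 12 h, and of the 23 at 12 h, 9 were shared at 0 h and 9 at 4 h. The share of all peaks under this rule was not computed, so these counts have no background to be read against. Members broadest at 0 h numbered 2 with the 2.5 kb flank, with 5 kb around starts, with narrow peaks left out and with neighbours' peaks left out, and 3 with peaks joined. With peaks joined, 3 members were narrowest at 4 h and 3 at 12 h, while those broadest at 12 h numbered 5 or 6 in every setting. These last settings were applied to the broadest and narrowest times after seeing the data. The share of all genes was not computed for them, so whether the members stay above it is not known. Unknown depth limits every statement that a stretch was not called, and widths near the narrowest peak of a library carry least weight.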
